A study of Homo sapiens with 39 samples.

Results

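The transcript levels of HepaRG™ cells given ampicillin trihydrate (AMP) or sodium chloride (NaCl) were set against those of cells given media alone. The members were chosen by their labels: 6 treated libraries (AMP at 1, 3 and 10 mM, NaCl at 1, 2.5 and 10 mM) and 4 media controls, which makes 10 of the 39 libraries of the series. The media controls carry no chemical and were labelled as the controls of NaCl, of AMP, of 2-deoxy-D-glucose (2DG) and of sodium ascorbate (ASC). HepaRG™ is an established human hepatoma line whose differentiated cultures mix cells resembling hepatocytes with cells resembling cholangiocytes, and all 10 groups were differentiated cells of this 1 line. Exposure began 7 days after plating and was renewed each day over 3 days, with RNA taken 7 h after the last dose, 55 h after the first. RNA of 3 cultures was pooled into each library, so a condition has 1 library and the spread between cultures of a condition was not measured. AMP and NaCl were both given as chemicals that do not damage DNA. The question put to these libraries is which transcripts vary between cultures when no toxic response is intended.

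Ampicillin is a beta-lactam antibiotic that blocks the synthesis of the bacterial cell wall, a structure that human cells lack. Sodium chloride is already the main salt of culture media, and extra salt draws water out of cells, a stress that the transcription factor NFAT5 answers by inducing osmolyte transporters. Cultures also differ for reasons unrelated to a chemical. Immediate-early genes such as FOS and EGR2 respond within minutes to serum, stretch and handling, and hypoxia-inducible factor (HIF) turns on genes of glycolysis and pH control when oxygen runs short, as it can in dense cultures that use oxygen quickly.

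The deposited counts of the 10 libraries summed to between 9047095 and 16425527, and 10 or more counts were found for 61.7% to 64.2% of the 20802 targets. Levels are given as RPM (reads scaled to the library total) and differences on the log2(RPM + 1) scale, which understates the change of low genes. Values per library were compared for the 10673 targets with a mean of at least 5 RPM over the 10 libraries. The 10 hepatocyte markers summed to between 21906 and 39362 RPM, and none of them was at 10 counts or fewer in all 10 libraries. Of 7 markers of cholangiocyte-like cells, KRT7, EPCAM and CFTR had at most 10 counts in every library, and the list summed to between 997 and 1464 RPM. Of the other cell types, the defining markers COL1A2 (fibroblasts), VWF and CDH5 (endothelium), and PTPRC and LYZ (leukocytes) had at most 10 counts in every library. The other members of these lists were measured, with means over the 10 libraries of 141 RPM for LUM, 74.5 for DCN, 35.3 for COL3A1, 25.1 for COL1A1, 21.9 for PDGFRB, 11.7 for PECAM1 and 37.7 for CD14. Each gene was read by 1 target, so at most 10 counts do not by themselves show that a gene was not expressed. In all 45 pairs of libraries the counts differed by more than sampling alone gives, with a chi-square per gene of 6.42 to 74.4 where sampling gives about 1, so no library was a second copy of another.

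No gene passed the test between the 6 treated libraries and the 4 media controls. In edgeR's quasi-likelihood test, 0 of 13323 genes had an adjusted p under 0.05 (0% of the genes tested), 256 had an unadjusted p under 0.05, and DESeq2 called 0. The genes of smallest p, none of which passed, were CPA4, a carboxypeptidase, with a log2 fold change of -1.01 (SE 0.21, adjusted p = 1.00) and DUSP6, a phosphatase that switches off ERK, with 0.78 (SE 0.19, adjusted p = 1.00). Next in order of p were DUSP9, FGB, PAQR9 and ABCA6, with higher levels in the treated libraries, and C14orf80, CEP95, IKZF3 and MKI67IP, with lower ones. NR4A1 shows what limits this comparison. Its level was 1.32, 1.22 and 1.18 RPM in the controls of NaCl, ASC and AMP but 24.4 RPM in the control of 2DG, and it lay between 2.98 and 7.43 RPM in the 6 treated libraries, above 3 controls and below the fourth.

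Set apart by chemical, the AMP libraries passed the test against the 4 controls at 0 of 13323 genes (0% of the genes tested, 685 at an unadjusted p under 0.05, 3 by DESeq2). The smallest p belonged to FAM71A, with a log2 fold change of 2.37 (SE 0.38, adjusted p = 0.444), and ALDH1A1, a retinaldehyde dehydrogenase, with 0.57 (SE 0.10, adjusted p = 0.521). ALDH1A1 was at 1849, 1893 and 2061 RPM in AMP at 1, 3 and 10 mM. It was between 1282 and 1325 RPM in the 4 controls, without overlap. The difference missed the threshold in edgeR's test, while DESeq2 called it (adjusted p = 5.5e-05). MMP7, a secreted protease of epithelia, was lowest in AMP, at 132, 134 and 103 RPM against 201 RPM in the control of AMP, 167 in that of ASC, 287 in that of 2DG and 322 in that of NaCl. The other AMP genes of smallest p were ACSL1, SAA2 and MOCS1, with higher levels, and CEP95, KCNN4, MND1 and PRR5L, with lower ones.

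Against the 4 controls the NaCl libraries also passed the test at 0 of 13323 genes (0% of the genes tested, 885 at an unadjusted p under 0.05, 11 by DESeq2). The genes of smallest p were PPFIA4 with a log2 fold change of 1.52 (SE 0.29), TNFSF14 with 0.97 (SE 0.18), EGLN3 with 0.80 (SE 0.16), AHSG with 1.37 (SE 0.28) and DUSP6 with 0.94 (SE 0.20), all with an adjusted p of 0.686. EGLN3, an oxygen-dependent hydroxylase that marks HIF for destruction and is itself a HIF target, was at 242, 227 and 323 RPM in NaCl at 1, 2.5 and 10 mM and between 122 and 197 RPM in the 4 controls. CYTL1, LTBP1, CPA4, NSG1 and PTPN13 had the smallest p among lower genes. Directly against each other, the 3 AMP and the 3 NaCl libraries passed at 0 of 13323 genes as well (0% of the genes tested), although 2195 had an unadjusted p under 0.05 and DESeq2 called 157, of which 66 were higher in AMP. ALDH1A1 again had the smallest p (log2 fold change 0.78, SE 0.11, adjusted p = 0.107), followed by MMP7, PPFIA4, GLUL, EGLN3, KRT16, PDLIM7, TXNIP, KIAA1456 and RPS18, all at an adjusted p of 0.170.

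Counted without a test, each treated library lay closer to its own control than most controls lay to each other. In AMP at 1 mM, 225 genes were over 2-fold higher and 2 over 2-fold lower than in the control of AMP, which is 2.13% of the 10673 genes. At 3 mM there were 87 higher and 5 lower (0.862% of the genes), and at 10 mM 222 higher and 13 lower (2.2% of the genes). NaCl at 1 mM had 9 genes higher and 1 lower (0.0937% of the genes), 2.5 mM 8 higher and 4 lower (0.112% of the genes), and 10 mM 40 higher and 65 lower (0.984% of the genes). For NaCl the counts at 1 and 2.5 mM were close, and the higher count at 10 mM rests on 1 library. Of the 65 lower genes at 10 mM, 54 were also over 2-fold lower in the control of AMP than in that of NaCl. Such genes, 414 in all, are 3.88% of the genes, and both comparisons share the control of NaCl. For AMP the mid concentration had the fewest genes. The controls, which hold no chemical, spanned a wider range. The control of ASC and that of AMP differed past 2-fold at 5 genes (0.0468%), and the controls of NaCl and 2DG at 76 (0.712%). The control of NaCl differed from that of ASC at 663 genes (6.21%) and from that of AMP at 485 (4.54%), and the control of 2DG from that of ASC at 638 (5.98%) and from that of AMP at 458 (4.29%). The median was 98.5 genes over the 6 treated libraries and 471.5 over the 6 pairs of controls.

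The genes at the extremes of these single differences were few. HIST1H2BC, a replication-dependent histone gene, was the highest relative to its own control in AMP at 1 mM (log2 ratio 2.11) and the lowest in NaCl at 10 mM (-2.30). The immediate-early gene FOSB was the highest in AMP at 10 mM (2.62), in NaCl at 2.5 mM (1.91) and in NaCl at 10 mM (2.61). MRPL34, a mitochondrial ribosomal protein, led AMP at 3 mM (2.30), and NDRG1, a stress gene that HIF induces, led NaCl at 1 mM (1.41). The lowest against the own control were DUS1L and PLEK2 in AMP at 1 and 3 mM, with log2 ratios of -1.16 and -1.23, ZCCHC16 in AMP at 10 mM, and SLMAP and MYBL2 in NaCl at 1 and 2.5 mM, with -1.05 and -1.18. ZCCHC16 was at 0.612 RPM in AMP at 10 mM and between 6.39 and 10.5 RPM in the other 9 libraries.

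Which control was used changed these counts. Set against the control of NaCl, AMP at 1 mM differed past 2-fold at 69 genes, and against that of 2DG at 39, fewer than the 227 against its own control. AMP at 10 mM differed at 235 genes from its own control and at 101 from that of NaCl. AMP at 3 mM was the exception, with 92 genes against its own control, 125 against that of ASC, 294 against that of 2DG and 429 against that of NaCl. All 3 NaCl libraries had their fewest genes against their own control. Over the 3 concentrations the mean count was 184.7 genes for AMP and 42.3 for NaCl, and between 130.0 and 686 for the other 8 chemicals, each against its own control. ETP and 2DG, at 130.0 and 132, thus lay below AMP. The mean over AMP and NaCl, 113.5 genes, was lower by 261.7 than the mean of 375 over the other 8. This difference did not pass an exact permutation test over the 45 ways to pick 2 of 10 chemicals (two-sided, p = 0.133). The two-sided p doubles the smaller tail, so the smallest it can be is 0.0444. Against the mean of the controls of the same vehicle, the difference was -269 and passed, at that smallest value (two-sided exact permutation test, p = 0.0444).

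Against the own control, immediate-early genes were higher in every treated library. With each set's control in the model, 1 of 13377 genes passed (0.00748% of the genes tested): EGR2, a zinc-finger factor induced by growth signals. EGR2 was at 42.8, 57.3 and 51.9 RPM in AMP at 1, 3 and 10 mM against 15.1 RPM in the control of AMP, and at 24.5, 33.9 and 33.8 RPM in NaCl at 1, 2.5 and 10 mM against 11.5 RPM in that of NaCl. It rose by 1.60 on the log2 scale (SE 0.19, adjusted p = 0.0220) in 6 of 6 libraries. Of 17 immediate-early genes, 14 could be tested, while EGR3, JUN and IER2 had at most 10 counts on average. All 14 had a level above the own control in all 6 treated libraries, with a median log2 fold change of 0.71 beside -0.0027 over all genes. Of them, 13 of 14 had an unadjusted p under 0.05 and a higher level, against 1.37% of all genes. For 10 of the 14 the controls of AMP and NaCl were the lowest of the 10 libraries. Each sign rests on 1 control per chemical, and the share of all genes above it in all 6 libraries was not counted. Only EGR2 passed after adjustment in edgeR's test, whereas DESeq2 called 19 genes, all higher.

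The neighbours of EGR2 missed the threshold in edgeR's test. DESeq2 called FOS (adjusted p = 4.92e-09), FOSB (2.00e-08), NR4A1 (5.77e-05) and ATF3 (2.15e-08). FOS, the partner of JUN in the AP-1 factor, was at 310, 316 and 349 RPM in AMP and 285, 314 and 411 RPM in NaCl, against 154 and 150.1 RPM in the controls of AMP and NaCl (log2 fold change 1.13, SE 0.16, adjusted p = 0.0550). FOSB, a second FOS family member, was at 15.8, 12.6 and 26.8 RPM in AMP and 14.3, 21.0 and 34.9 RPM in NaCl against 3.53 and 4.88 RPM in those controls (2.34, SE 0.40, adjusted p = 0.142). NR4A1, an orphan nuclear receptor, had 2.14 (SE 0.34, adjusted p = 0.0824), and ATF3, a stress-induced repressor, had 1.71 (SE 0.27, adjusted p = 0.0824). The levels of EGR1, JUNB, DUSP1, ZFP36, KLF6, IER3 and MYC were less far from the controls, with log2 fold changes from 0.36 for MYC to 0.79 for IER3.

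The controls themselves covered a wide range. The control of 2DG had the highest level of the 4 controls for 13 of the 14 genes, with EGR2 at 64.0, FOS at 379, FOSB at 47.3 and ATF3 at 67.2 RPM, and the control of ASC was low, with EGR2 at 23.1, FOS at 193, FOSB at 5.84 and ATF3 at 15.6 RPM. The 5 DMSO and water controls of the series ran from 16.2 to 73.2 RPM for EGR2 and from 4.29 to 66.0 RPM for FOSB. Among the 24 conditions of the other 8 chemicals, EGR2 and FOS were each above the own control in 10 and ATF3 in 17. When all 16 media libraries with their 4 sets were fitted together, 1 treated term covered AMP, NaCl, ASC and 2DG. Its log2 fold change for EGR2 was 0.60 (adjusted p = 0.976), which is not the effect of AMP and NaCl alone. The call of EGR2 also ended without the control of AMP (adjusted p = 0.894), the control of NaCl (0.0996), NaCl at 2.5 mM (0.124) or AMP at 10 mM (0.0608).

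**Figure D1:**
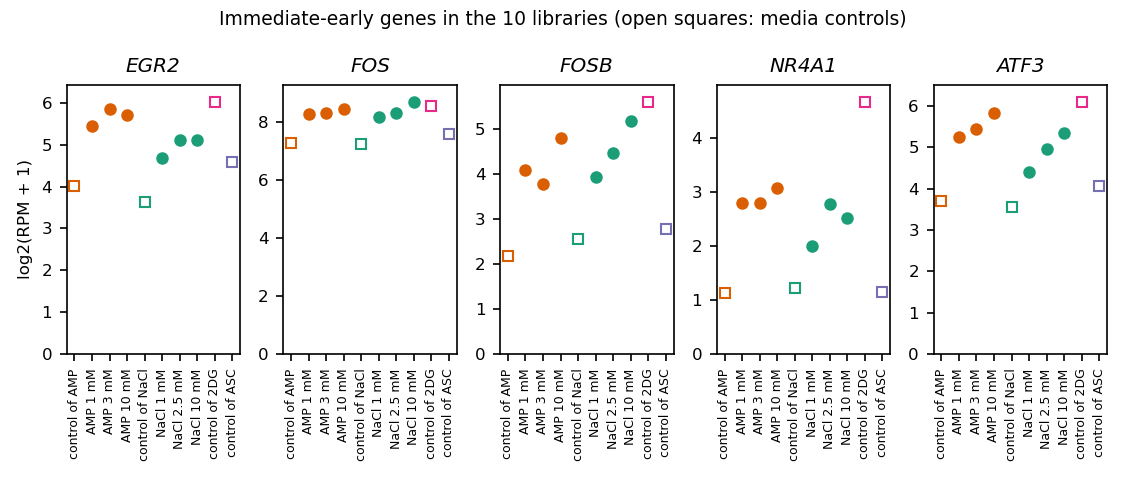
Each point is 1 library, with the level of 5 immediate-early genes as log2(RPM + 1); open squares are media controls and filled circles treated libraries, coloured by control set. In every panel the AMP and NaCl libraries lie above their own controls, and the control of 2DG lies above or level with most of them.

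Genes of chemokines and of cell division stood beside the immediate-early genes in this comparison. All 8 tested genes of the NF-kappaB and chemokine list were higher against the own control, beside 6578 of all 13377 genes. The 8 had a median log2 fold change of 0.60, and 5 had an unadjusted p under 0.05, against 1.37% of all genes. CCL20, which attracts lymphocytes, had 1.00 and CCL2, which attracts monocytes, had 0.70. Of 12 proliferation genes, 11 were lower, with a median of -0.30, and 5 had an unadjusted p under 0.05 in that direction, against 0.748% of all genes. MKI67, a marker of cycling nuclei, had -0.50 and CDK1, the kinase that starts mitosis, had -0.39. No gene of either list passed after adjustment in edgeR's test, while DESeq2 called CCL20 (adjusted p = 5.59e-04) and IL8, a neutrophil attractant (0.68, adjusted p = 0.0200). The difference between the responses to AMP and NaCl passed edgeR's test at 0 of 13377 genes (0% of the genes tested, 1289 at an unadjusted p under 0.05, 49 by DESeq2). The smallest adjusted p, 0.404, was that of C12orf4, XRN1, SNRNP27, CEBPB and MRPS25, with a higher response in AMP, and of HUWE1, HIPK1, IGSF3, EFNB1 and GNB1, with a lower one.

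Over concentration, NaCl was accompanied by higher levels of HIF target genes, though no slope passed the threshold in edgeR's test. Slopes are log2 changes per step from the own control to the low, mid and high concentration. For NaCl 0 of 13377 genes passed (0% of the genes tested, 1100 at an unadjusted p under 0.05, 45 by DESeq2, of which 40 rose). BHLHE40, a repressor induced by HIF and by the clock, came closest, with a slope of 0.46 (SE 0.06, adjusted p = 0.0510). It was at 178 RPM in the control of NaCl and at 236, 309 and 447 RPM in NaCl at 1, 2.5 and 10 mM. IGFBP1, a secreted binding protein of insulin-like growth factors, went from 15.5 RPM to 23.3, 33.7 and 64.0 RPM (0.70, SE 0.11), and NDRG1 from 101 RPM to 269, 215 and 563 RPM (0.73, SE 0.12), both at an adjusted p of 0.0838. PFKFB4, an enzyme that drives glycolysis, went from 4.57 RPM to 9.62, 8.25 and 25.3 RPM (0.77, SE 0.13, adjusted p = 0.0838). The order of the low and mid concentrations was thus not the same in these genes, while 10 mM was highest in each. DESeq2 called the slopes of BHLHE40 (adjusted p = 1.02e-07), IGFBP1 (1.15e-05), NDRG1 (0.0357) and PFKFB4 (8.46e-04).

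All 10 genes of the hypoxia list were above the control of NaCl in all 3 NaCl libraries. Of them, 7 had their highest level of the 10 libraries in NaCl at 10 mM. The comparison with the control rests on that library alone, and the highest levels rest on NaCl at 10 mM alone. The share of all genes with either pattern was not counted. The median slope of the hypoxia list was 0.31 beside -0.0022 over all genes. Of its 10 genes, 8 had an unadjusted p under 0.05 and a positive slope, against 4.75% of all genes. Besides NDRG1 and CA9 these included EGLN3 with 0.31, SLC2A1, the main glucose carrier, with 0.35, and BNIP3, which directs mitochondria to autophagy, with 0.32, whereas LDHA had 0.05 and PDK1 0.05. With AMP the same list had 4 of 10 slopes above 0, beside 6689 of all 13377 genes, and a median of -0.01. The acute-phase gene CRP (0.41, SE 0.07) and CTGF, a target of YAP (0.31, SE 0.05), were the other genes of smallest p among those with a positive slope for NaCl. ZNF100, HIST1H1B, HIST1H3C, LOC646903 and HIST1H2AG led the negative slopes. HIST1H1B, a linker histone of dividing cells, was at 17.9 RPM in the control and at 15.4, 8.10 and 5.55 RPM in NaCl. All 12 proliferation genes had a negative slope for NaCl, with a median of -0.16, and 4 had an unadjusted p under 0.05, against 3.48% of all genes. Over all genes, 6561 of 13377 slopes for NaCl were above 0.

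CA9 differed between the chemicals. CA9 is a carbonic anhydrase of the cell surface that keeps pH in cells short of oxygen, and it is among the most HIF-dependent genes known. It was at 20.6 RPM in the control of AMP and at 13.9, 9.46 and 6.47 RPM in AMP at 1, 3 and 10 mM, but at 15.7 RPM in the control of NaCl and at 27.0, 25.1 and 46.4 RPM in NaCl at 1, 2.5 and 10 mM. The AMP slope was -0.56 (SE 0.09, adjusted p = 0.593) and the NaCl slope 0.48 (SE 0.08, adjusted p = 0.0842). Their difference, AMP minus NaCl, was -1.04 (SE 0.12, adjusted p = 0.0240), and CA9 was the 1 gene of 13377 that passed (0.00748% of the genes tested). DESeq2 called 137 genes in this test, CA9 among them. The test of the difference was added after the slopes had been seen. CA9 was at 27.2 and 15.2 RPM in the controls of 2DG and ASC, so that AMP at 1, 3 and 10 mM lay below all 4 controls and NaCl at 10 mM above them. The call ended with concentration in mM in place of steps (adjusted p = 0.229), and without the control of NaCl (0.386), that of AMP (0.804), AMP at 10 mM (0.149), NaCl at 1 mM (0.0828) or NaCl at 10 mM (1.00).

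**Figure D2:**
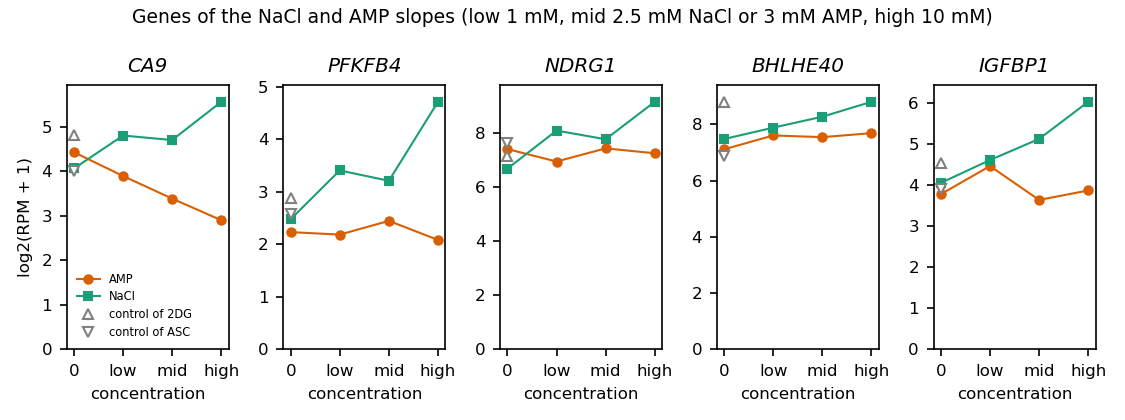
The level of 5 genes as log2(RPM + 1) is plotted against the concentration step for AMP (orange circles) and NaCl (green squares), with the controls of 2DG and ASC as open triangles at 0. CA9 goes from 20.6 to 6.47 RPM over AMP and is at 46.4 RPM in NaCl at 10 mM, and the other 4 genes are highest in NaCl at 10 mM, or level with the control of 2DG for BHLHE40.

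The sequences before the start sites of CA9, PFKFB4 and BHLHE40 are shown because CA9 was the gene called between the slopes and the others are known HIF targets described with the NaCl slopes. They were chosen after their values had been seen. The core of the HIF binding site is ACGTG or GCGTG, searched on both strands, and its letters are in capitals, so that CACGT marks the core on the other strand and CACGTG marks overlapping cores on both strands. Each run is the 250 bases before the RefSeq start site, 5′ to 3′ in the direction of the gene, in GRCh38.p14: CA9 on chr9:35673678-35673927 (plus strand), PFKFB4 on chr3:48556804-48557053 (minus strand) and BHLHE40 on chr3:4979187-4979436 (plus strand).
CA9: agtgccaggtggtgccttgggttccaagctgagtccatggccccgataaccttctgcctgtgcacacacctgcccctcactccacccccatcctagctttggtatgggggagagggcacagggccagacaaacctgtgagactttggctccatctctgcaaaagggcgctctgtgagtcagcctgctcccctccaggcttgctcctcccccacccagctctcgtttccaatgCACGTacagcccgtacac
PFKFB4: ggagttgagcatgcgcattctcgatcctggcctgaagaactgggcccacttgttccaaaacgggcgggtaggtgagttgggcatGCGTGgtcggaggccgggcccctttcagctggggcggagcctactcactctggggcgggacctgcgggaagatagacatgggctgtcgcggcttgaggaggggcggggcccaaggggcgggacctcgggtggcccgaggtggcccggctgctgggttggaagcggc
BHLHE40: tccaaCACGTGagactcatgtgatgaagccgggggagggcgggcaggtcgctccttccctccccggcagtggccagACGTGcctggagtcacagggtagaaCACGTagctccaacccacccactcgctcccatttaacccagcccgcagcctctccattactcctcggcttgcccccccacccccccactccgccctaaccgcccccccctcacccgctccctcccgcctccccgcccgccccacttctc
The core occurs at 1 place before CA9, starting at base -18 from the start site, at 1 place before PFKFB4, at base -166, and at 4 places before BHLHE40. It occurs in 43.2% of all 35116 windows of this length and in 7 of 10 of those of the hypoxia list. A match of these letters is a description and not a binding site.

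AMP slopes gave 0 calls of 13377 genes (0% of the genes tested, 957 at an unadjusted p under 0.05, 13 by DESeq2). The positive slopes of smallest p were those of GDF15, a stress cytokine, with 0.54 (SE 0.10), ATF3 with 0.63 (SE 0.12), PHGDH, the first enzyme of serine synthesis, with 0.45 (SE 0.09), CYR61 and ID3. PHGDH was at 29.7 RPM in the control of AMP and at 29.9, 40.4 and 74.5 RPM in AMP at 1, 3 and 10 mM, while the other libraries lay between 24.4 and 33.5 RPM. After CA9 the negative slopes of smallest p were those of DPYSL3, CXCL13, MMP7 and GPRC5B. Of the 14 immediate-early genes all had a positive AMP slope and 11 had an unadjusted p under 0.05, against 4.08% of all genes. The AMP slopes start from the control of AMP, 1 library that also entered the comparison with the own control above, and are not a second measurement of it.

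The difference between the controls of AMP and NaCl, 414 genes over 2-fold lower in the control of AMP (3.88% of the genes) and 71 over 2-fold higher (0.665% of the genes), was also measured in libraries that did not enter it. Because high levels in the control of NaCl helped to choose the 414 genes, ratios to that control tend to be negative: 36 of the 37 other libraries of the series had a median under 0 and 4 had one under -1. Taken against the control of NaCl, the 414 genes had a median log2 ratio of -1.39 in the control of ASC, where 356 of them were over 2-fold lower, and of -0.10 in that of 2DG, where 5 were. In the AMP libraries the median was -0.37, -0.94 and -0.35 at 1, 3 and 10 mM, and in the NaCl libraries -0.18, -0.22 and -0.54 at 1, 2.5 and 10 mM. Treated libraries of other chemicals reached the same depth, with -1.64 in CISP at 2 µM and -1.11 in 2DG at 1.25 mM, as did the DMSO control of ETP with -1.02. No condition as a whole marked these libraries: 2DG at 5 mM had 0.17 and at 10 mM -0.41. Because both the control of AMP and the control of NaCl entered the choice, their own levels of these genes are a description.

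The 414 genes led with HIST1H2BC, at 22.2 RPM in the control of AMP and 188 RPM in that of NaCl. It was at 20.6 RPM in the control of ASC and 176 RPM in that of 2DG, at 98.7, 89.0 and 82.8 RPM in AMP and at 129, 161 and 37.3 RPM in NaCl. Histone genes of this cluster are near-identical copies, so reads of HIST1H2BC may include those of its neighbours. LMAN1, a cargo receptor of the early secretory path, was at 33.7 and 144 RPM in the controls of AMP and NaCl, at 26.2 and 129 RPM in those of ASC and 2DG, at 127, 80.3 and 135 RPM in AMP and at 126, 127 and 62.5 RPM in NaCl. SMARCAD1, a chromatin remodeller, had 0.59 and 11.1 RPM in the controls of AMP and NaCl, and 3.47, 2.67 and 6.90 RPM in AMP. In each of these genes AMP lies above its own control and below that of NaCl, so the sign of a change in AMP depends on the control.

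As a group, these genes differed from all genes in properties that the choice did not use directly. The longest GENCODE transcript of the 384 matched genes had a median GC content of 41.8% against 47.6% over all 9925 matched genes and 50.6% over the 63 matched genes that were higher in the control of AMP. The GC quartiles overlapped, at 38.4% and 47.5% against 41.6% and 55.7% over all genes. The median length was 3602 bases against 3729 over all genes. The median level was 18.7 RPM against 32.6 over all genes and 15.3 over those higher in the control of AMP. Histone genes were 9 of the 414 (2.17%) and 32 of all 10673 (0.300%). In the 5 DMSO and water controls the 414 genes had a median SD of 0.42 on the log2 scale against 0.20 over all genes. Library totals of the controls of AMP and NaCl were 11911979 and 9843225 counts. The part of expression level, GC content, depth, RNA quality and culture in this difference was not tested.

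The 4 libraries of AMP with its control differed from the 4 libraries of NaCl with its control at more genes than treated from control. With treatment in the model, 1210 of 13377 genes passed (9.05% of the genes tested), 621 higher in the AMP set (4.64%) and 589 lower (4.4%), and 177 of them differed by over 2-fold. DESeq2 called 1570, of which 1177 were shared. The set of cultures and the chemical cannot be told apart for the treated libraries. Each side is 1 set, so the p-values measure the spread between libraries within sets and not between sets of cultures. The count fell to 185 without NaCl at 2.5 mM, 266 without the control of AMP, 274 without the control of NaCl, 432 without NaCl at 1 mM, 452 without AMP at 3 mM and 671 without AMP at 10 mM.

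CYP4B1, a cytochrome P450 of the fatty-acid family, had the smallest p. It was at 139 RPM in the control of AMP and 118, 180 and 142 RPM in AMP at 1, 3 and 10 mM, against 40.0 RPM in the control of NaCl and 49.5, 52.8 and 52.8 RPM in NaCl, a log2 difference of 1.57 (SE 0.13, adjusted p = 3.65e-04) with no overlap. HMGA2, an architectural chromatin protein of growing cells, was lower, at 16.1 to 19.9 RPM in the AMP set and 37.1 to 48.6 RPM in the NaCl set (-1.24, SE 0.11, adjusted p = 3.65e-04). TXNIP, which binds thioredoxin and curbs glucose uptake, was higher in the AMP set, at 21.2 to 34.4 RPM against 8.39 to 12.8 RPM (1.36, SE 0.19, adjusted p = 0.00764). NQO1, a quinone reductase and NRF2 target, was higher too, at 11.1 to 15.4 RPM against 4.69 to 6.74 RPM (1.27, SE 0.16, adjusted p = 0.00420).

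MMP7 was lower, at 103 to 201 RPM against 254 to 323 RPM (-1.10, SE 0.13, adjusted p = 0.00336), and APOA2, an apolipoprotein of HDL, at 6.20 to 7.76 RPM against 16.8 to 29.6 RPM (-1.70, SE 0.18, adjusted p = 0.00137). HMGA2, TXNIP, NQO1, MMP7 and APOA2 were chosen after their values had been seen. By size of difference, the called genes led with SCNN1B, ACSS1, LOC100506688, SDS, FAM71A, MFSD12, CYP4B1, MCF2, RHCE and LOC100271722, higher in the AMP set by 1.42 to 2.03 on the log2 scale. MDFI, APOA4, PSAPL1, TAS2R13, LPPR3, HYMAI, MMP13, KRT23, NDUFA4L2 and HSD17B13 led the lower genes, with -1.83 to -2.89. Several of these have few reads, such as ACSS1, an acetyl-CoA synthetase of mitochondria, at 3.07 to 4.87 RPM in the AMP set and 0.44 to 1.27 RPM in the NaCl set.

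Libraries that were not in this fit took sides gene by gene. Of the 562 called genes higher in the AMP set with at least 5 RPM, 92.7% were nearer to the AMP set's mean in the control of ASC and 54.4% in that of 2DG. Of the 450 lower ones, 86.7% and 36.4% were nearer. In the ASC libraries the share of the 562 genes nearer to the AMP set was 94.5%, 75.8% and 73.1% at 1, 2 and 10 mM, and in the 2DG libraries 74.2%, 44.1% and 36.8% at 1.25, 5 and 10 mM. CYP4B1 was at 174 and 50.2 RPM in the controls of ASC and 2DG, at 90.8 to 151 RPM in ASC and at 40.7 to 69.5 RPM in 2DG. HMGA2 was at 16.7 and 31.0 RPM in those controls.

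Some genes on the marker lists of other cell types differed between the sets. The 6 fibroblast markers summed to 221 to 239 RPM in the AMP set, 352 to 388 RPM in the NaCl set, 154 to 224 RPM in the ASC set and 342 to 390 RPM in the 2DG set. Of the 5 that could be tested, LUM (-0.80, adjusted p = 0.00800), DCN (-0.86, adjusted p = 0.00800) and COL3A1 (-0.56, adjusted p = 0.0400), all of the extracellular matrix, were lower in the AMP set, against 4.4% of all genes, while COL1A1 had 0.03 and PDGFRB -0.06. The 1 testable endothelial marker, PECAM1, was lower (-1.02, adjusted p = 0.0177) and the 1 testable leukocyte marker, CD14, higher (0.44, adjusted p = 0.0428). Among hepatocyte markers TTR (-0.62) was lower and 8 of 10 did not pass. COL1A2, VWF, CDH5, PTPRC and LYZ of the same lists had at most 10 counts in every library. The genes that differed do not by themselves establish that cells of these types were present, nor do low counts of 1 target per gene establish that they were absent. The part of cell composition in the difference between sets was not tested. Fewer cells of a type cannot be told apart from less RNA per cell in pooled RNA.

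Of 12 proliferation genes, 5 were lower in the AMP set, against 4.4% of all genes. All 12 had a negative log2 difference, where 6712 of all 13377 genes had a positive one. The 5 that passed were BIRC5 (-0.64), TOP2A (-0.50), CCNB1 (-0.47), CDK1 (-0.46) and MKI67 (-0.44). Of 10 hypoxia genes, PDK1 (-0.81) and EGLN3 (-0.82) were lower and ADM (0.52) higher. Of 9 NRF2 targets, 1 was higher, against 4.64% of all genes, and 3 lower, against 4.4%, and of 13 reference genes used in qPCR none passed.

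Over the 10 libraries, the SD of a gene's log2(RPM + 1) had a median of 0.20, quartiles of 0.15 and 0.27, and a 95th percentile of 0.45. Counting alone gives a median SD of 0.07, and 8001 of 10673 genes had an SD over 2 times that of counting. The median SD was 0.19 within the 4 controls and 0.19 within the 6 treated libraries, and 54.0% of the genes varied more among the controls. An SD over 0.5 was found for 363 genes (3.40%). The 20 most variable genes were HIST1H2BC (1.17), FOSB (1.14), SMARCAD1 (1.11), NR4A1 (1.10) and UBLCP1 (1.08), then TMF1, MRPL34, RALA, OCRL, WDR45, SECISBP2, SOS2, SECISBP2L, TRAPPC11, APOA2, LOC100190986, ATF3, LMAN1, EPYC and CYP4B1, down to 0.86. All but APOA2 varied more among the controls than among the treated libraries, and 15 of the 20 had their lowest levels of all in the controls of AMP and ASC.

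The same genes varied in libraries that were not used to rank them. Among the 5 DMSO and water controls, 19 of the 20 were within the 500 most variable genes, CYP4B1 being the exception. Of the 500 most variable genes of the 10 libraries, 144 (28.8%) were also among the 500 most variable of those 5 controls, a list that holds 4.68% of all genes. Across genes, which share libraries and depth, the SDs in the 2 groups of libraries had a Pearson's r of 0.53 and a Spearman's rho of 0.48.

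Among genes with a mean of at least 50 RPM the 10 lowest SDs ran from 0.04 to 0.05 and belonged to TCP1, a subunit of the cytosolic chaperonin, BAIAP2, NMD3, BABAM1, TOMM20, LAPTM4A, FASTK, KEAP1, the sensor of oxidative stress, MRPS2 and SF3B2, a splicing factor. Of the 13 reference genes of qPCR past the minimum, the median SD was 0.15, and the highest was 0.24 for TBP. GAPDH ran from 3119 to 4488 RPM and ACTB from 7778 to 10655 RPM.

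By pathway, 22 of 26 lists had a median SD above that of all genes. The highest medians with at least 5 genes past the minimum were 0.47 for 5 metallothioneins, with MT1X at 0.75, 0.41 for 13 immediate-early genes and 0.41 for 9 hepatocyte markers. The 8 PPAR-alpha targets had 0.40, with ACADM at 0.61, the 7 NF-kappaB and chemokine genes 0.39, with TNFAIP3 at 0.53, and the 10 hypoxia genes 0.38, with CA9 at 0.77. The most variable p53 target was GDF15 at 0.69, while the 18 p53 targets had a median of 0.21. TXNIP (0.70), BHLHE40 (0.64), TUBB4B (0.64), CRP (0.60) and NQO1 (0.59) led the glucose-responsive, clock, tubulin, acute-phase and NRF2 lists. The lowest medians were those of the reference genes (0.15), the glucocorticoid targets (0.15, with DUSP1 at 0.38), the interferon-stimulated genes (0.17, with IFI27 at 0.42) and the NFAT5 genes (0.20, with SLC6A12 at 0.28).

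Other pathways that either chemical might be thought to engage had no call in edgeR's test. Of the 10 NFAT5 genes of osmotic stress, 9 could be tested for NaCl. Their median slope was 0.08 per step, and 5 of 9 were above 0, beside 6561 of all 13377 genes. None passed after adjustment, and 2 had an unadjusted p under 0.05 and a positive slope, against 4.75% of all genes. The osmolyte carrier SLC6A12 was at 5.28 RPM in the control of NaCl and at 4.97, 8.18 and 8.58 RPM in NaCl, and NFAT5 itself had a slope of -0.06. Of 18 p53 targets, 8 were above the own control in AMP and NaCl together, beside 6578 of all 13377 genes. The 18 had a median log2 fold change of -0.0085, and none passed in edgeR's test. DESeq2 called 1 of them, GDF15 (0.93, adjusted p = 0.0190). The 8 targets of the xenobiotic receptors PXR and CAR had a median of 0.06, the 12 genes of the unfolded protein and integrated stress response 0.09 and the 9 heat shock genes 0.0053. None of them passed in edgeR's test, while DESeq2 called ATF3, which is also in the immediate-early list (1.71, adjusted p = 2.15e-08).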

How the data were processed

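The authors sequenced AmpliSeq libraries, in which a primer pair amplifies 1 short target for each gene, and aligned the reads to the transcripts of the panel (hg19). The deposited counts are reads per target, without normalization, and the deposited RPM are those counts scaled to the library total. Recomputing RPM from counts left no difference over 0.000538. The tables hold 20802 gene targets, and 10 spike-in targets and 6 annotation columns were left out. Libraries were grouped by the labels of treatment, concentration and control.

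Counts were tested with edgeR 4.0.16 (TMM, filterByExpr, quasi-likelihood test) in R 4.3.3, with Benjamini-Hochberg adjusted p over all genes tested and a threshold of 0.05. The fits were 6 against 4 libraries, 3 arms, treated against own control with the set as a block (8 libraries), 1 mean response per set, and 1 slope per chemical over concentration steps. Concentrations stand as replicates of a chemical, so p-values measure the spread between libraries of pooled RNA. Single libraries were compared on log2(RPM + 1) for targets with a mean of at least 5 RPM. The fits were tested on simulated data. Alternatives were DESeq2 1.42.0, RLE scaling, no filter, each library left out, concentration in mM, all 16 media libraries, other pseudocounts (0.1), minimums (1 and 20 RPM), folds (1.5) and controls. The members and gene lists were chosen with earlier results of these data known. Genes were named by a rule: called genes, up to 10 a direction by log2 fold change, or the 5 of smallest p a direction where none was called, the 20 highest and 10 lowest SDs, the most variable member of a list, and the most different gene of each treated library, and others were chosen after their values had been seen. The libraries carry no molecular identifiers. Promoters are RefSeq windows. Some results are not reported here. Python 3.11.15 was used with pandas 2.3.3, numpy 2.4.6 and scipy 1.17.1.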

Additional observations from a re-analysis of the deposited data

Results flagged for a closer look

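NR4A1 was at 24.4 RPM in the control of 2DG, far from the other 3 media controls, the next of which had 1.32 RPM. ZCCHC16 was at 0.612 RPM in AMP at 10 mM, far from the other 5 treated libraries, the lowest of which had 7.10 RPM. These are 2 stray values among 38 groups of libraries of 19 named genes, by a rule that flags about 1 in 20 groups by chance. ZCCHC16 was named as the lowest gene against its own control, and NR4A1 is among the 20 most variable genes. That rate therefore cannot be applied to them.

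The slope of CA9 differed between AMP and NaCl by -1.04 per step of concentration (edgeR's quasi-likelihood test, adjusted p = 0.0240). In 4 more genes all 3 AMP libraries lay above their own control and all 3 NaCl libraries below theirs, a difference that was not tested beyond the response test, in which none of them passed. The mean log2 ratio to the own control, AMP minus NaCl, was 2.99 for HIST1H2BC, 2.64 for SMARCAD1, 2.22 for LMAN1 and 0.76 for TXNIP. Each rests on 1 control library per chemical. HIST1H2BC, SMARCAD1 and LMAN1 are among the 414 genes chosen for a lower level in the control of AMP than in that of NaCl, so these values largely hold that gap again.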

How the results depend on the processing

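Leaving out each library in turn gave 0 to 1 calls for AMP against media, 0 to 7 for NaCl against media, 0 to 1 for AMP against NaCl, 0 to 7 against the own control, 185 to 1321 between the sets (the counts that moved by over 1.5 times were 185, 266, 274, 432, 452 and 671), 0 to 261 for the difference of responses, 0 to 123 for the AMP slope, 0 to 30 for the NaCl slope (3, 5, 25 and 30 where it was above 0), 0 to 350 for the difference of slopes, and 239 to 426 genes with an SD over 0.5. The highest counts came without the control of NaCl (NaCl against media), NaCl at 1 mM (own control), AMP at 3 mM (difference of responses and NaCl slope) and AMP at 1 mM (AMP slope and difference of slopes). Where an arm then had 1 library, that library was assumed to vary like the others. DESeq2 called 3, 11, 157, 19, 49, 13, 45 and 137 genes for AMP against media, NaCl against media, AMP against NaCl, own control, difference of responses, AMP slope, NaCl slope and difference of slopes. Without a filter on low counts edgeR called 1 (AMP against media), 9 (own control), 100.0 (difference of responses), 4 (AMP slope), 34 (NaCl slope) and 20 (difference of slopes). Fitting all 16 media libraries gave 4 genes for AMP against NaCl. It gave 0 for the own control, with 1 treated term over AMP, NaCl, ASC and 2DG together. Concentration in mM gave 0 for the difference of slopes.

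The median count of genes past the fold, 98.5 for treated libraries and 471.5 for pairs of controls, was 43.5 and 229 at a minimum of 20 RPM and 706.5 and 1616 at 1.5-fold. For treated libraries it was 21.5 against the mean of the controls of the same vehicle, 386.5 against the control of ASC and 231 against that of AMP. With the mean of the controls of the same vehicle the difference between chemicals was -269 (exact permutation test, two-sided, p = 0.0444). NR4A1 had a log2 fold change of 2.17 for 6 against 3 libraries without the control of 2DG, and the NaCl slopes of PDK1 and LDHA were -0.10 and -0.032 without the control of NaCl. The causes were not tested. RLE scaling gave 584 genes higher and 622 lower between the sets. No paired analysis was possible because the labels give no replicate numbers that groups share. The block used was the control set, in the tests against the own control. With 1 library a condition, no spread within a condition was measured.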
